A study of Mus musculus with 12 samples.

Results

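Inhibition of the nociceptive nerves of a lymph node was compared with intact nerves in all 12 libraries of the series, 6 from NDE mice and 6 from NC mice. In NDE mice the nociceptive nerves reaching the tumour-draining lymph node (TDLN) had been inhibited, and in NC mice they had not. Each arm held 3 libraries of T mice, whose tongue had been inoculated with B16F10, an established mouse melanoma line, and 3 libraries of NT mice without that inoculation. The 4 groups were therefore T NDE, NT NDE, T NC and NT NC. Libraries were chosen by these labels alone, and no measured value entered the choice. The comparison asks which genes of the node differ with nerve inhibition on average over T and NT mice. Tumour status was a covariate and 1 nerve coefficient was fitted per gene. This fit assumes the same nerve difference in T and NT mice and does not test it. The strain, sex and age of the mice, the method and duration of the inhibition, any sham procedure in NC mice and the number of mice per library could not be learned from the labels. The submitters describe the repetitions of a group as biologically independent, and p-values here measure the spread between these libraries.

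Nociceptive neurons are sensory neurons that detect noxious stimuli, and their fibres enter the capsule and medulla of lymph nodes. They can release neuropeptides such as calcitonin gene-related peptide and substance P, whose receptors are carried by immune and stromal cells. Interferons, sensed by most cells, switch on antiviral genes and families of GTPases. Naive T cells recirculate through the node under the control of homing receptors.

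T NC replicates 3 and 1 had the smallest and largest totals, 16862953 and 24467873 counts, and the filter on low counts left 17301 of 55487 genes. Lymph node markers were present in every library: the pan B cell genes summed to between 7784 and 11106 CPM (counts scaled to a common library total), and the pan T cell genes to between 1776 and 2308 CPM. Salivary gland transcripts stood out in 3 libraries. Bpifa2, a secreted salivary protein, was at 25420 CPM (without TMM factors) for T NDE replicate 3, while NT NC replicate 3 had 19567 CPM and NT NC replicate 2 had 997 CPM, against 6.66 to 38.1 CPM in the other 9. These 3 libraries lie in both nerve arms, but among T mice only in NDE and among NT mice only in NC. The nerve contrast within each tumour status therefore has them on a single side, and that side is opposite in T and NT mice. Values without them are given beside many of the results below. Those values have NT NC replicate 1 as the only NT NC library.

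Few genes passed the threshold with all 12 libraries, and 11 of the 12 were lower in the NDE arm. With edgeR's quasi-likelihood test and Benjamini-Hochberg adjustment, 12 of 17301 genes passed an adjusted p of 0.05 (0.0694% of all genes tested), 11 lower in NDE (0.0636%) and 1 higher (0.00578%). The lower genes were Slfn1, Ms4a4b, Art2b, H2-T22, Apol7e, BC147527, the interferon-inducible GTPase genes Gbp6, Tgtp1 and Gm12185, the immunoglobulin heavy chain segment Ighv8-8 and the noncoding gene Gm30948. The higher gene was Maf, a transcription factor. Gm12185, BC147527, Ighv8-8 and Gm30948 fell outside the naming rule and were named after their values were seen. For each of the 12 genes the 6 NDE libraries did not overlap the 6 NC libraries, a separation found over all genes in 51 genes with NDE lower (0.295%) and 33 with NDE higher (0.191%). At an unadjusted p of 0.05 there were 1502 genes (8.68%), 793 lower (4.58%) and 709 higher (4.1%), while the median log2 fold change over all genes was 0.01 and 46.2% of genes lay below 0 against 53.8% above. In bulk RNA, fewer cells of a type and less RNA per cell cannot be told apart, here and in every group below.

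The count of 12 depended on single libraries. It was 0 without NT NDE replicate 1 or NT NDE replicate 2, 1 without NT NC replicate 1 or NT NC replicate 2, 3 without NT NC replicate 3, NT NDE replicate 3, T NC replicate 2 or T NDE replicate 2, 4 without T NDE replicate 3 and 17 without T NC replicate 1. Leaving out the 3 salivary libraries gave 4 genes (0.022% of 18185 tested), with Slfn1 and Prtn3 lower and Nebl and Cr2 higher, and leaving out the 2 most salivary gave 5. The NT libraries fitted alone gave 37 genes, 22 lower and 15 higher, and the T libraries alone gave 0. DESeq2's Wald test called 131 genes (0.792% of 16538), 107 lower and 24 higher, and these included all 12. Each of the 12 genes kept its direction in every alternative fit in which it was tested. Since their NDE and NC libraries did not overlap, leaving out libraries could not reverse it, so this is no further support. Of all 27 alternative fits Slfn1 passed in 24 and Maf in 21. Both failed without NT NDE replicate 1 or 2 and in the T libraries fitted alone.

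**Figure D1:**
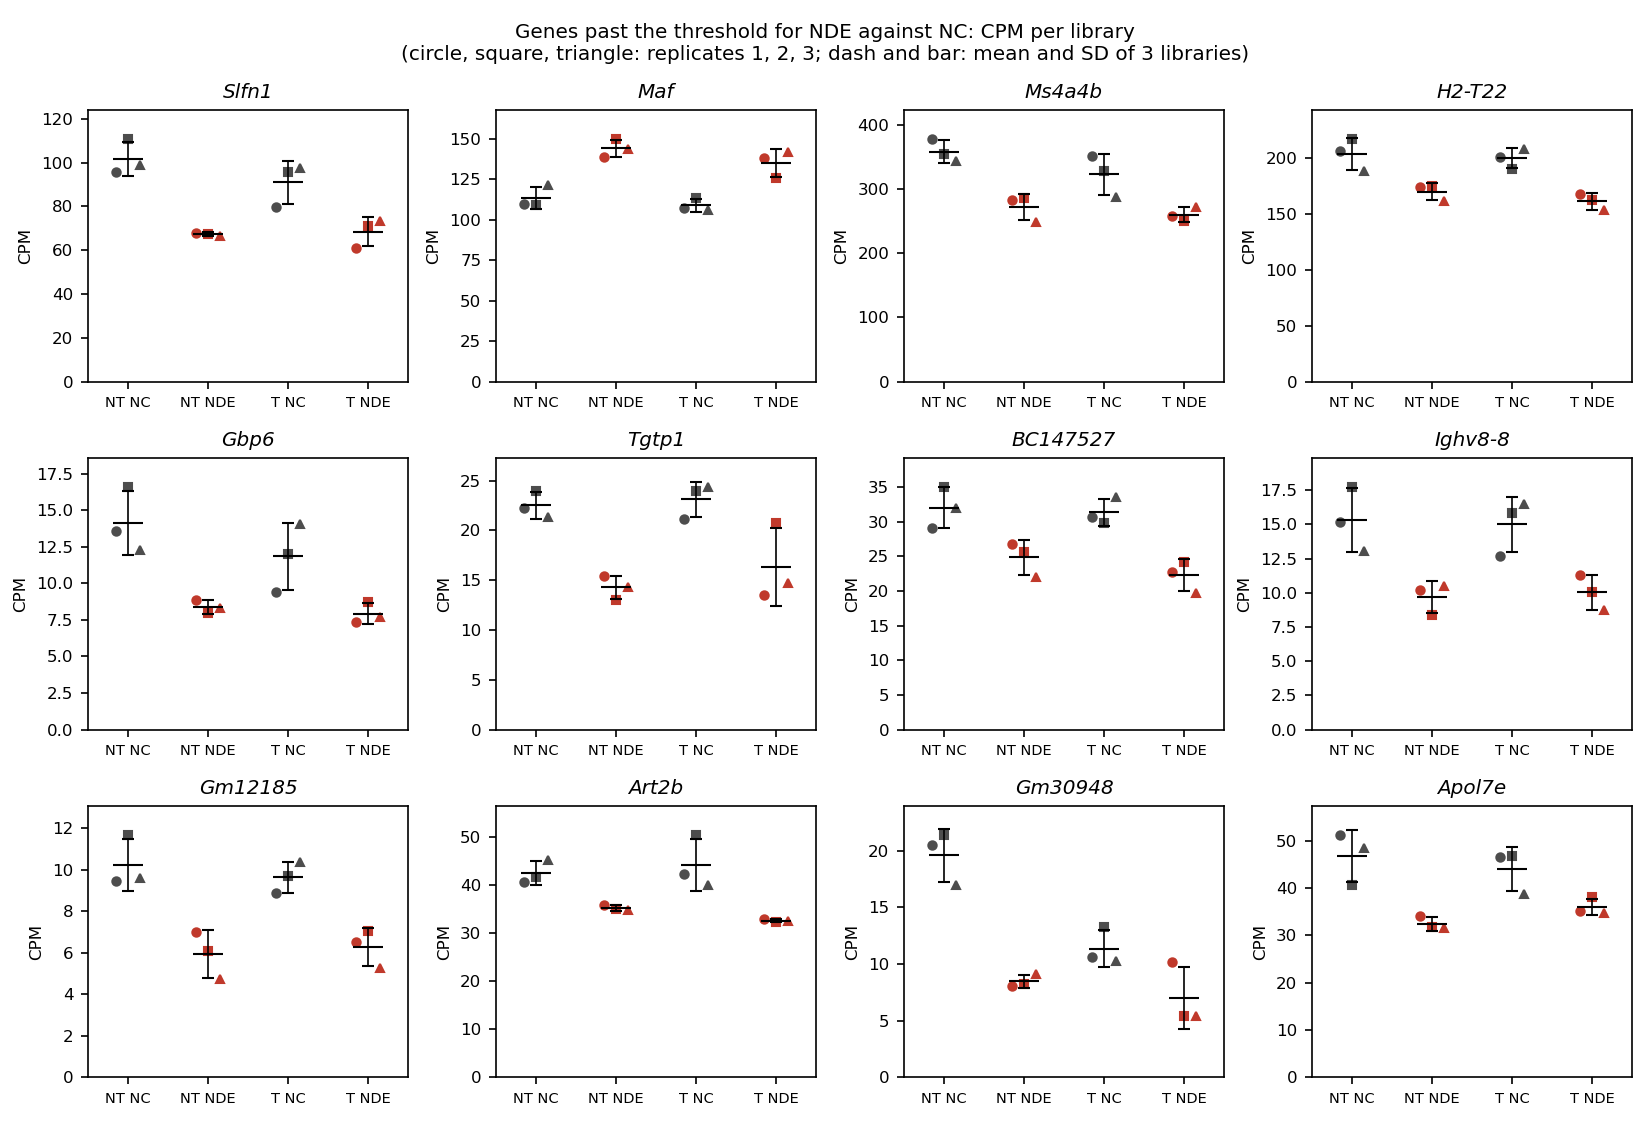
CPM of the 12 genes past the threshold in each library, by group (NT NC, NT NDE, T NC, T NDE), with the mean and SD of 3 libraries. Every NDE library (red) lies below every NC library (dark grey) for 11 genes and above for Maf, and the NC level of Gm30948 is higher in NT than in T mice.

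Slfn1 had the smallest p of all genes. It belongs to the Schlafen family, which interferon induces and which is known from quiescent T cells. Libraries 1, 2 and 3 of each group held 95.5, 111 and 99 CPM in NT NC, 79.7, 95.8 and 97.3 in T NC, 68.1, 67.6 and 66.4 in NT NDE and 61, 71.2 and 73.2 in T NDE. No NDE library reached the lowest NC library, and Slfn1 fell by 0.50 on the log2 scale (SE 0.06, edgeR adjusted p = 0.00955). The log2 fold change was -0.41 in T mice and -0.60 in NT mice. Slfn1 lies on mm10 chromosome 11 from 83116849 to 83122670, and no other annotated gene overlaps it. Slfn2, a family member, ranged from 213 to 243 CPM (median 228) in the NDE libraries and from 247 to 308 CPM (median 260.5) in the NC libraries without overlap (log2 fold change -0.24, edgeR adjusted p = 0.221) and did not pass.

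Maf encodes c-Maf, a transcription factor of interleukin-17-producing gamma delta T cells, follicular helper T cells and macrophages. Its libraries held 110.0, 109 and 121 CPM in NT NC, 108, 113 and 106 in T NC, 139, 149.7 and 144 in NT NDE and 138, 126 and 142 in T NDE. The lowest NDE library, T NDE replicate 2, stood above the highest NC library, NT NC replicate 3. The rise was 0.33 on the log2 scale (SE 0.04, edgeR adjusted p = 0.00955), with 0.31 in T mice and 0.35 in NT mice. Of the lists that hold Maf, the interleukin-17 and gamma delta T cell list had 17 of 18 tested genes above 0, Maf among them (median 0.56). Its median was 0.99 in T mice and 0.10 in NT mice, unlike the similar values of Maf. The follicular helper T cell list had 5 of 10 above 0 (median 0.005). The sinus macrophage list, which does not hold Maf, had 9 of 15 above 0 (median 0.03), against 53.8% of all genes. The part of each cell type in the rise of Maf was not tested. Maf lies on mm10 chromosome 8 from 115682942 to 115707794, where Gm15655 overlaps it on the other strand, and since the strand setting of the counting is not given, reads of the pair cannot be told apart.

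Upstream sequences are shown for 4 of the lower genes because the interferon response acts through short DNA elements near gene starts. The interferon-stimulated response element (ISRE) was searched as GAAA, then NN, then GAAA, and the gamma-activated site (GAS) as TTCNNNGAA, on both strands, in the 250 bases before each RefSeq start (GRCm38.p6). Capitals mark the matches, each sequence reads 5′ to 3′ on the gene's strand, and bases inside GENCODE exons were left out.
Tgtp1, chr11:48992259-48992496, minus strand: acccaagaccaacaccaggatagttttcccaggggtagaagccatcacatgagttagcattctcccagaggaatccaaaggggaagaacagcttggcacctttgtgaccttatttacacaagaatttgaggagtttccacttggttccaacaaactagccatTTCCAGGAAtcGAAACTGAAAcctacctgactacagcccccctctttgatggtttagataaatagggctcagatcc
Gm12185, chr11:48927183-48927432, minus strand: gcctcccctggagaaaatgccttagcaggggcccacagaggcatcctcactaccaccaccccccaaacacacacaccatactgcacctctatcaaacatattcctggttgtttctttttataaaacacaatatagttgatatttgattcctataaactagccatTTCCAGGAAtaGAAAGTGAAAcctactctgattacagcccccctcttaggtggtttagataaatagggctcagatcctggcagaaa
H2-T22, chr17:36042748-36042960, minus strand: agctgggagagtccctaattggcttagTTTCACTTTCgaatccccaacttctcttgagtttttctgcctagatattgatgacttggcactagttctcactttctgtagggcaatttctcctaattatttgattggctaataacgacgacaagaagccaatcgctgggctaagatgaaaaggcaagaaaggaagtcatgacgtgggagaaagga
Slfn1, chr11:83116570-83116819, plus strand: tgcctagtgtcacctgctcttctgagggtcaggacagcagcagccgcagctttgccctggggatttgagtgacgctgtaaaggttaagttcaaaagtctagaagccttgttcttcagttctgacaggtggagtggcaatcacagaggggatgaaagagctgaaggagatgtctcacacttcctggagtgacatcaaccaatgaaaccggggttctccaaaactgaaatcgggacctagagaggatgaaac

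Tgtp1 and Gm12185 carried the same arrangement, a GAS match TTCCAGGAA followed by an ISRE match, GAAACTGAAA in Tgtp1 and GAAAGTGAAA in Gm12185. The bases around these matches were also much alike in both windows, so the pair does not count as separate cases. The ISRE matches began 77 and 75 bases before the respective start, and no match to either motif was present in the Slfn1 window. Of the 12 genes past the threshold, 9 had a RefSeq promoter. Of these, 5 held an ISRE match (Tgtp1, Gm12185, H2-T22, Apol7e and BC147527), as did 3.5% of 27025 genes with a promoter (2.98% of 32851 windows). A GAS match was held by 2, the similar pair Tgtp1 and Gm12185, and by 8.1% of genes (7.02% of windows). In the lists, ISRE matches were found in 14 of 26 type I interferon genes with a promoter, 11 of 14 interferon gamma genes, 0 of 11 naive T cell genes and 0 of 8 pan T cell genes. GAS matches were found in 3, 8, 2 and 1 of the same genes. A match is a run of letters and no evidence of binding.

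Interferon gamma induces a set of large GTPases, the guanylate-binding proteins (GBPs) and immunity-related GTPases (IRGs), that attack vacuoles holding intracellular pathogens. Both of the listed genes that passed belong to it. Gbp6, a GBP, held 13.6, 16.6 and 12.3 CPM in NT NC, 9.45, 12 and 14.1 in T NC, 8.88, 7.99 and 8.30 in NT NDE and 7.35, 8.72 and 7.69 in T NDE. All NDE libraries lay below all NC libraries, and Gbp6 fell by 0.67 on the log2 scale (SE 0.11, edgeR adjusted p = 0.0417). Tgtp1, an IRG, held 22.2, 24 and 21.4 CPM in NT NC, 21.1, 24 and 24.3 in T NC, 15.4, 13 and 14.3 in NT NDE and 13.5, 20.7 and 14.7 in T NDE. T NDE replicate 2 was its highest NDE library and still lay below every NC library (log2 fold change -0.58, SE 0.10, edgeR adjusted p = 0.0417). Gm12185, an IRG-type gene, ranged from 4.73 to 7.05 CPM (median 6.32) in the NDE libraries and from 8.88 to 11.7 CPM (median 9.65) in the NC libraries without overlap (log2 fold change -0.70, SE 0.12, edgeR adjusted p = 0.0417).

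These GTPase genes sit in clusters of close copies, so their single values are uncertain. Tgtp1 lies on mm10 chromosome 11 from 48985327 to 48994172 and overlaps the span annotated for Gm12185 on the same strand and Olfr56 on the other. Its transcript is 99.8% identical to that of Tgtp2 over 99.6% of its length, and Tgtp2 had a log2 fold change of -0.53 (edgeR adjusted p = 0.23). Gm12185 is 93.0% identical to Gm5431 over 50.5% of its length, and 92.9% and 92.8% identical to 9930111J21Rik1 and 9930111J21Rik2 over 49.8%. The last 2 are more abundant, with NDE and NC means of 49.4 and 52.6 CPM and of 169 and 187 CPM, and had log2 fold changes of -0.09 and -0.14. Gbp6 (chromosome 5 from 105270702 to 105293698) overlaps Gm43302 on the same strand and shares 32.5% of its transcript with Gbp10 at 98.5% identity. Gbp10 had means of 2.02 CPM in NDE and 4.07 CPM in NC, and Gm5431 a log2 fold change of -0.64, and neither passed the threshold. How the deposited counts divided reads between such copies was not tested.

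Across the interferon gamma list, 18 of 21 tested genes were below 0, with a median log2 fold change of -0.33 against 0.01 over all genes. An unadjusted p under 0.05 was reached by 15 genes with NDE lower and 1 with NDE higher, against 4.58% and 4.1% of all genes. Igtp, an IRG, had a value of -0.54 (edgeR adjusted p = 0.127), and Irgm1, an IRG that regulates the others, -0.49 (edgeR adjusted p = 0.244). Gbp4 ranged from 123 to 148 CPM (median 138) in the NDE libraries and from 143 to 201 CPM (median 176) in the NC libraries, which overlapped (log2 fold change -0.36, edgeR adjusted p = 0.0813). Irf1, a transcription factor of the response, had -0.20, while Irf8, which also directs dendritic cell and B cell development, had 0.16 with NDE higher. The chemokine genes Cxcl9 and Cxcl10 had -0.99 and -1.60 in T mice against -0.03 and -0.63 in NT mice (edgeR interaction adjusted p = 0.664 and 0.808).

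Genes of the type I interferon response, the antiviral set induced by interferon alpha and beta, formed the group with the lowest median. Of 37 tested genes 36 were below 0, against 46.2% of all genes, and 0 passed the threshold over all genes. An unadjusted p under 0.05 was reached by 31 with NDE lower and by 1 with NDE higher. The median was -0.57 with all libraries, -0.60 in T mice, -0.59 in NT mice and -0.48 without the 3 salivary libraries. Below 0 in both strata were 36 of the 37 genes, against 23.7% of all genes. The exception was Siglec1, a sialic acid receptor that also marks lymph node sinus macrophages, at 0.29 (edgeR adjusted p = 0.401).

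The mean log2 CPM of the type I list, with a pseudocount of 0.5, was 5.20 to 5.50 in NT NDE and 5.72 to 6.34 in NT NC, and 4.92 to 5.13 in T NDE and 5.27 to 6.15 in T NC. Within each tumour status every NDE library was below every NC library. Across the arms they overlapped, from 4.92 to 5.50 in NDE and 5.27 to 6.34 in NC, with NT NDE replicates 1 and 3 above T NC replicates 1 and 2. The NC libraries spread widely, with T NC replicate 3 and NT NC replicate 2 the highest of their groups.

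Ifit1, an antiviral protein that binds foreign RNA, held 33.1, 53.3 and 47.5 CPM in NT NC, 17.2, 21.3 and 50.7 in T NC, 18.3, 14 and 17.8 in NT NDE and 8.50, 13.1 and 9.57 in T NDE. T NC replicate 1 lay within the range of the NT NDE libraries, so the arms overlapped (log2 fold change -1.46, SE 0.27, edgeR adjusted p = 0.145). Ifit1bl1, a relative of Ifit1, ranged from 21.7 to 28.9 CPM (median 25.1) in the NDE libraries and from 34.4 to 69.1 CPM (median 45) in the NC libraries with no overlap (log2 fold change -0.94, edgeR adjusted p = 0.0537). Ifih1, the cytoplasmic RNA sensor MDA5, ranged from 28.9 to 35.8 CPM (median 31.9) in the NDE libraries and from 33 to 61.4 CPM (median 48.5) in the NC libraries with overlap (log2 fold change -0.54, edgeR adjusted p = 0.0537). Among the other effectors, Mx1, an antiviral GTPase, had -0.85, Isg15, a ubiquitin-like protein, -0.85, and Rsad2, the antiviral enzyme viperin, -1.33. Irf7, the amplifier of interferon production, had -0.73 (edgeR adjusted p = 0.418).

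**Figure D2:**
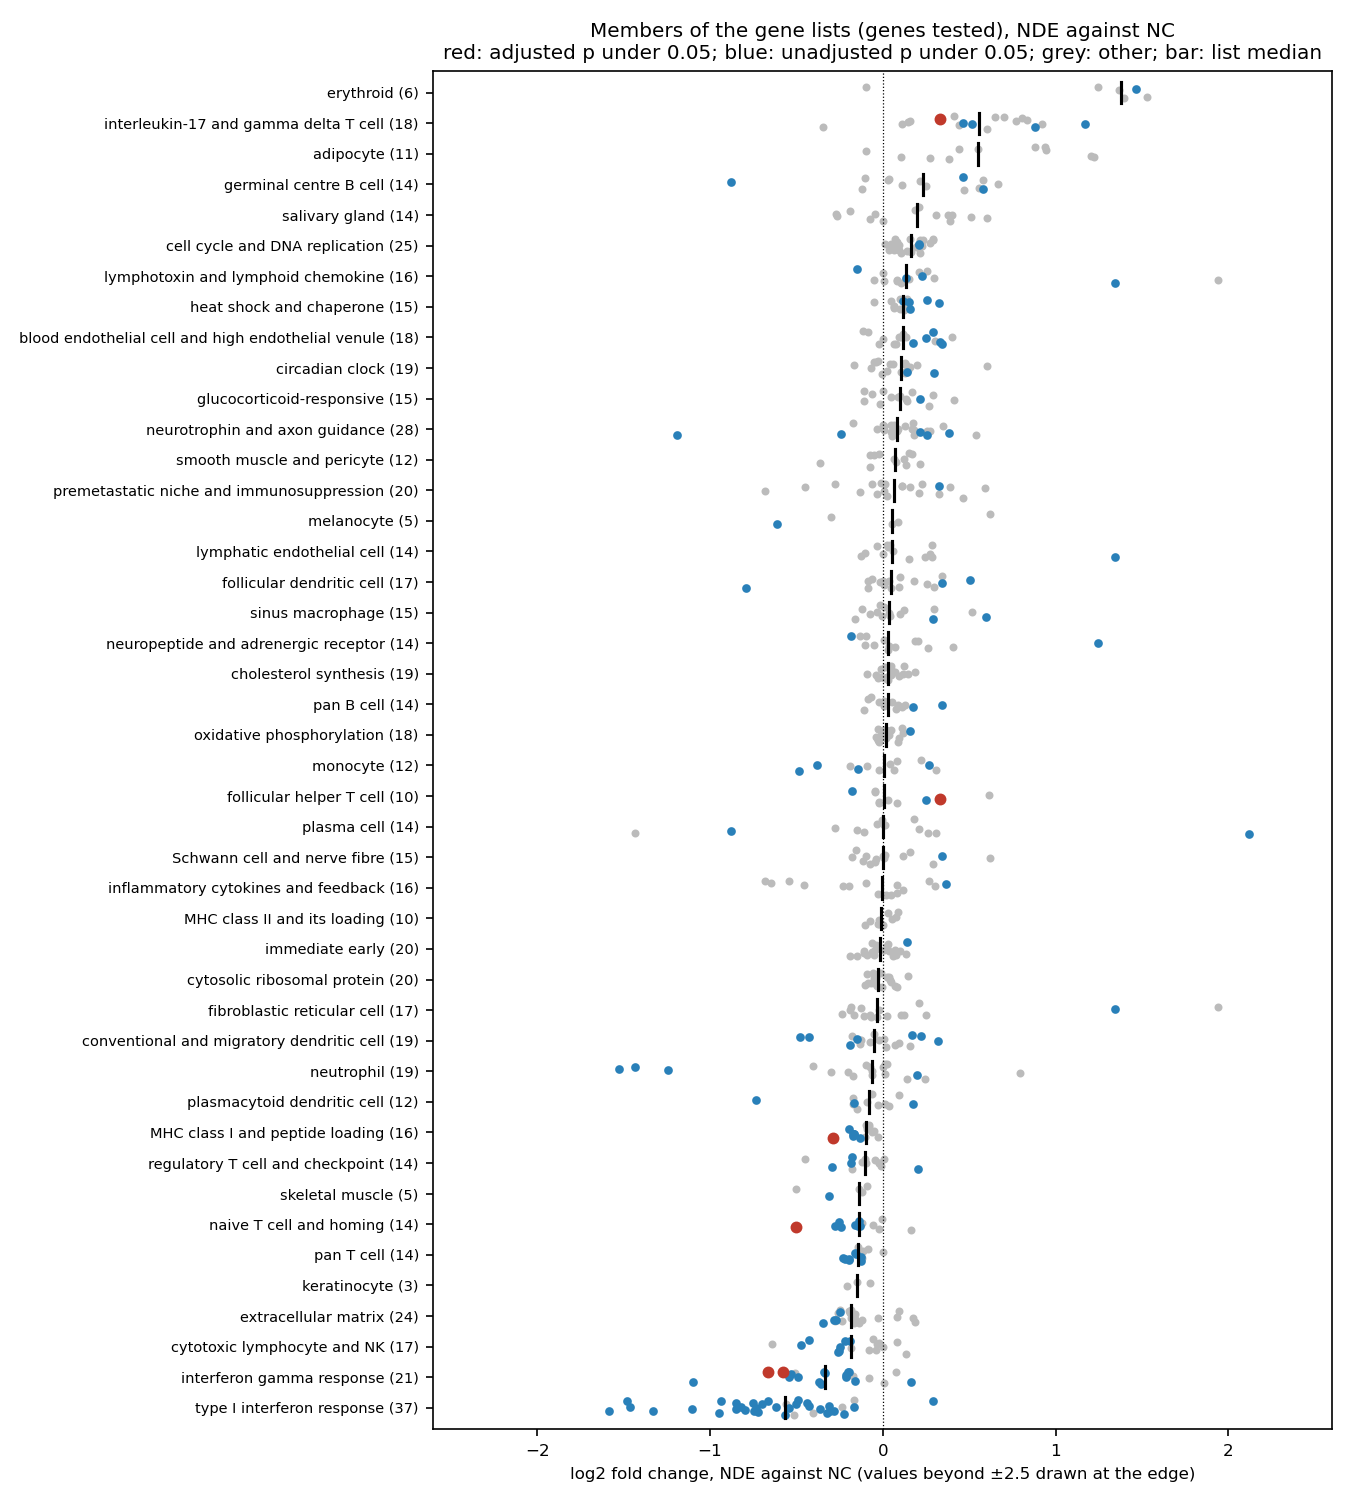
Log2 fold change, NDE against NC, of each tested member of the 44 gene lists, sorted by list median (black bar), with the number of tested genes in brackets. The type I interferon (-0.57) and interferon gamma (-0.33) lists have the lowest medians, and the erythroid (1.38) and interleukin-17 (0.56) lists have the highest.

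Of the genes with the next smallest p-values, which did not pass, 4 that are in no list are given here. They are not the 4 with the smallest p. Others in no list, such as Arhgap15 and Sidt1, are given further below. Trim21, a cytosolic antibody receptor, ranged from 50.5 to 57.4 CPM (median 55.9) in the NDE libraries and from 59.8 to 72.3 CPM (median 67.2) in the NC libraries without overlap (log2 fold change -0.28, SE 0.05, edgeR adjusted p = 0.0509). Parp9, an ADP-ribosyltransferase of the interferon response, ranged from 80.0 to 95.8 CPM (median 88.8) in the NDE libraries and from 102 to 138 CPM (median 112) in the NC libraries without overlap (log2 fold change -0.38, SE 0.07, edgeR adjusted p = 0.0748). Lgals9, which encodes galectin-9, ranged from 95.1 to 112 CPM (median 103) in the NDE libraries and from 109 to 141 CPM (median 124) in the NC libraries with overlap (log2 fold change -0.28, SE 0.05, edgeR adjusted p = 0.0687). Ifi208, of the interferon-inducible PYHIN family, ranged from 77.7 to 93.7 CPM (median 81.4) in the NDE libraries and from 88 to 153 CPM (median 121) in the NC libraries with overlap (log2 fold change -0.50, SE 0.09, edgeR adjusted p = 0.0951), and its transcript is 96.4% identical to that of Ifi213.

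MHC class I molecules present peptides to CD8 T cells and are also raised by interferons. H2-T22, a nonclassical class I gene whose product is recognised by some gamma delta T cells, ranged from 154 to 175 CPM (median 166) in the NDE libraries and from 189 to 217 CPM (median 204) in the NC libraries. The arms did not overlap, and H2-T22 fell by 0.29 on the log2 scale (SE 0.05, edgeR adjusted p = 0.0417). It lies on mm10 chromosome 17 from 36037128 to 36042747, shares 48.8% of its transcript with H2-T10 at 97.4% identity and is overlapped on the other strand by A930015D03Rik. All 16 tested class I and peptide-loading genes were below 0, with a median of -0.10. An unadjusted p under 0.05 was reached by 7, against 4.58% of all genes with NDE lower, among them H2-T23 at -0.19 (edgeR adjusted p = 0.271) and the peptide transporter gene Tap1 at -0.17 (edgeR adjusted p = 0.451). In NT mice 3 of the 16 were above 0. Class II genes had a median of -0.01.

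Apol7e, an apolipoprotein L gene on mm10 chromosome 15 from 77698857 to 77719285, ranged from 31.5 to 38 CPM (median 34.5) in the NDE libraries and from 38.7 to 51.1 CPM (median 46.6) in the NC libraries without overlap (log2 fold change -0.41, SE 0.07, edgeR adjusted p = 0.0467). Its transcript is 99.3% identical to that of Apol7b, a gene with a mean of 1.17 CPM in NDE and 1.28 CPM in NC, and 3 other annotated genes overlap its span. BC147527 on mm10 chromosome 13 from 120300392 to 120308779 ranged from 19.7 to 26.8 CPM (median 23.5) in the NDE libraries and from 29.1 to 35 CPM (median 31.3) in the NC libraries without overlap (log2 fold change -0.43, SE 0.07, edgeR adjusted p = 0.0417), and it shares 51.7% of its transcript with Gm8953 and is overlapped on the other strand by Gm20900. Ighv8-8 ranged from 8.37 to 11.3 CPM (median 10.1) in the NDE libraries and from 12.7 to 17.7 CPM (median 15.5) in the NC libraries without overlap (log2 fold change -0.62, SE 0.10, edgeR adjusted p = 0.0417). Another 6 V segments have similar transcripts, up to 96.1% identical. Of those tested, Ighv8-12 went the other way, with a log2 fold change of 1.38 and means of 27.6 CPM in NDE and 10.4 CPM in NC. Ighv8-6 had 0.22 and Ighv8-5 -1.16, both at low counts, and none of these copies passed. Gm30948, a long intergenic noncoding gene within the heavy chain locus on mm10 chromosome 12 from 115262684 to 115287908, held 20.5, 21.4 and 17 CPM in NT NC, 10.6, 13.3 and 10.2 in T NC, 8.10, 8.20 and 9.14 in NT NDE and 10.1, 5.43 and 5.42 in T NDE. Its NC level was higher in NT than in T mice, and T NDE replicate 1 lay just below T NC replicate 3. Gm30948 fell by 0.96 on the log2 scale (SE 0.16, edgeR adjusted p = 0.0417), and Ighv1-57 overlaps it on the other strand.

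Ms4a4b, a membrane protein of naive and regulatory T cells, ranged from 248 to 286 CPM (median 265) in the NDE libraries and from 288 to 377 CPM (median 348) in the NC libraries. Its arms did not overlap, and Ms4a4b fell by 0.35 on the log2 scale (SE 0.05, edgeR adjusted p = 0.0417). Art2b, an ADP-ribosyltransferase on the surface of T cells, ranged from 32.3 to 35.9 CPM (median 33.8) in the NDE libraries and from 39.9 to 50.3 CPM (median 41.9) in the NC libraries. The NDE libraries were tightly grouped and all below the NC libraries (log2 fold change -0.36, SE 0.06, edgeR adjusted p = 0.0417). Neither gene is overlapped by another annotated gene.

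Other genes named by their small p did not pass. Themis, which tunes T cell receptor signalling in thymocytes, ranged from 60.1 to 65.4 CPM (median 63.6) in the NDE libraries and from 66.8 to 80.2 CPM (median 75.8) in the NC libraries without overlap (log2 fold change -0.25, SE 0.05, edgeR adjusted p = 0.0547). Sidt1, a membrane protein implicated in nucleic acid transport, ranged from 79 to 96.1 CPM (median 92.9) in the NDE libraries and from 104 to 115 CPM (median 110.1) in the NC libraries without overlap (log2 fold change -0.27, SE 0.05, edgeR adjusted p = 0.0537). Arhgap15, a Rac GTPase-activating protein, ranged from 87.1 to 99.9 CPM (median 94.8) in the NDE libraries and from 105 to 121 CPM (median 111) in the NC libraries without overlap (log2 fold change -0.26, SE 0.05, edgeR adjusted p = 0.0509). These 3 genes each separated the arms by a small gap. Ms4a6b, a relative of Ms4a4b, ranged from 279 to 335 CPM (median 308) in the NDE libraries and from 321 to 422 CPM (median 381) in the NC libraries with overlap (log2 fold change -0.30, SE 0.06, edgeR adjusted p = 0.0617). Ipcef1 ranged from 93.7 to 112 CPM (median 108) in the NDE libraries and from 118 to 129 CPM (median 127) in the NC libraries without overlap (log2 fold change -0.24, SE 0.05, edgeR adjusted p = 0.0791). Pdk1, a kinase that restrains pyruvate oxidation, ranged from 121 to 149.9 CPM (median 135) in the NDE libraries and from 141 to 177 CPM (median 163) in the NC libraries with overlap (log2 fold change -0.27, SE 0.05, edgeR adjusted p = 0.0687), and Tdrp ranged from 27.2 to 32.7 CPM (median 29.7) in the NDE libraries and from 33.9 to 48.8 CPM (median 38) in the NC libraries without overlap (log2 fold change -0.41, SE 0.08, edgeR adjusted p = 0.0996).

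The naive T cell and homing list, which includes Slfn1 and Slfn2, had a mean level that did not overlap between the arms. Its mean log2 CPM ran from 7.56 to 7.67 in the NDE libraries and from 7.69 to 7.83 in the NC libraries, although the gap was small. Slfn1 and Slfn2 each separated the arms by themselves, and the list level without them was not computed. Of 14 tested genes 13 were below 0, against 46.2% of all genes, with a median of -0.14. With NDE lower, 9 reached an unadjusted p under 0.05, against 4.58% of all genes, and 1, Slfn1, passed, against 0.0636%. Il7r, the receptor for the survival cytokine interleukin-7, had -0.25, Ccr7, the receptor that guides T cells into the node, -0.15, and S1pr1, which directs exit from the node, -0.14. Their edgeR adjusted p-values were 0.453, 0.476 and 0.418. The medians in T and NT mice were -0.15 and -0.13, and -0.15 without the 3 salivary libraries.

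Of 14 pan T cell genes 14 were below 0 (median -0.14), and 8 reached an unadjusted p under 0.05 with NDE lower, against 46.2% and 4.58% of all genes. Cd6, a T cell surface receptor, had -0.23, and Cd3d, a CD3 chain, -0.16, with edgeR adjusted p of 0.343 and 0.401. In the cytotoxic and NK list 15 of 17 were below 0 (median -0.18). In T mice 16 were below 0 (median -0.23) and in NT mice 9 (median -0.07), against 47.3% and 48.9% of all genes. Cd8b1, the CD8 beta chain, had -0.25 (edgeR adjusted p = 0.253), and Eomes, a transcription factor of memory and killer cells, ranged from 16.9 to 21.3 CPM (median 19.7) in the NDE libraries and from 21.5 to 25.8 CPM (median 23) in the NC libraries without overlap (log2 fold change -0.26, edgeR adjusted p = 0.254). Regulatory T cell and checkpoint genes had a median of -0.10, with 12 of 14 below 0. In T mice 11 were below 0 (median -0.17) and in NT mice 9 (median -0.05). By comparison the pan B cell genes had a median of 0.03 with 10 of 14 above 0, and 0.21 without the 3 salivary libraries. Summed CPM of the pan T cell list ran from 1776 to 2089 in NDE and from 1898 to 2308 in NC. The part of this T cell level in the result for Slfn1, Ms4a4b and Art2b was not tested.

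**Figure D3:**
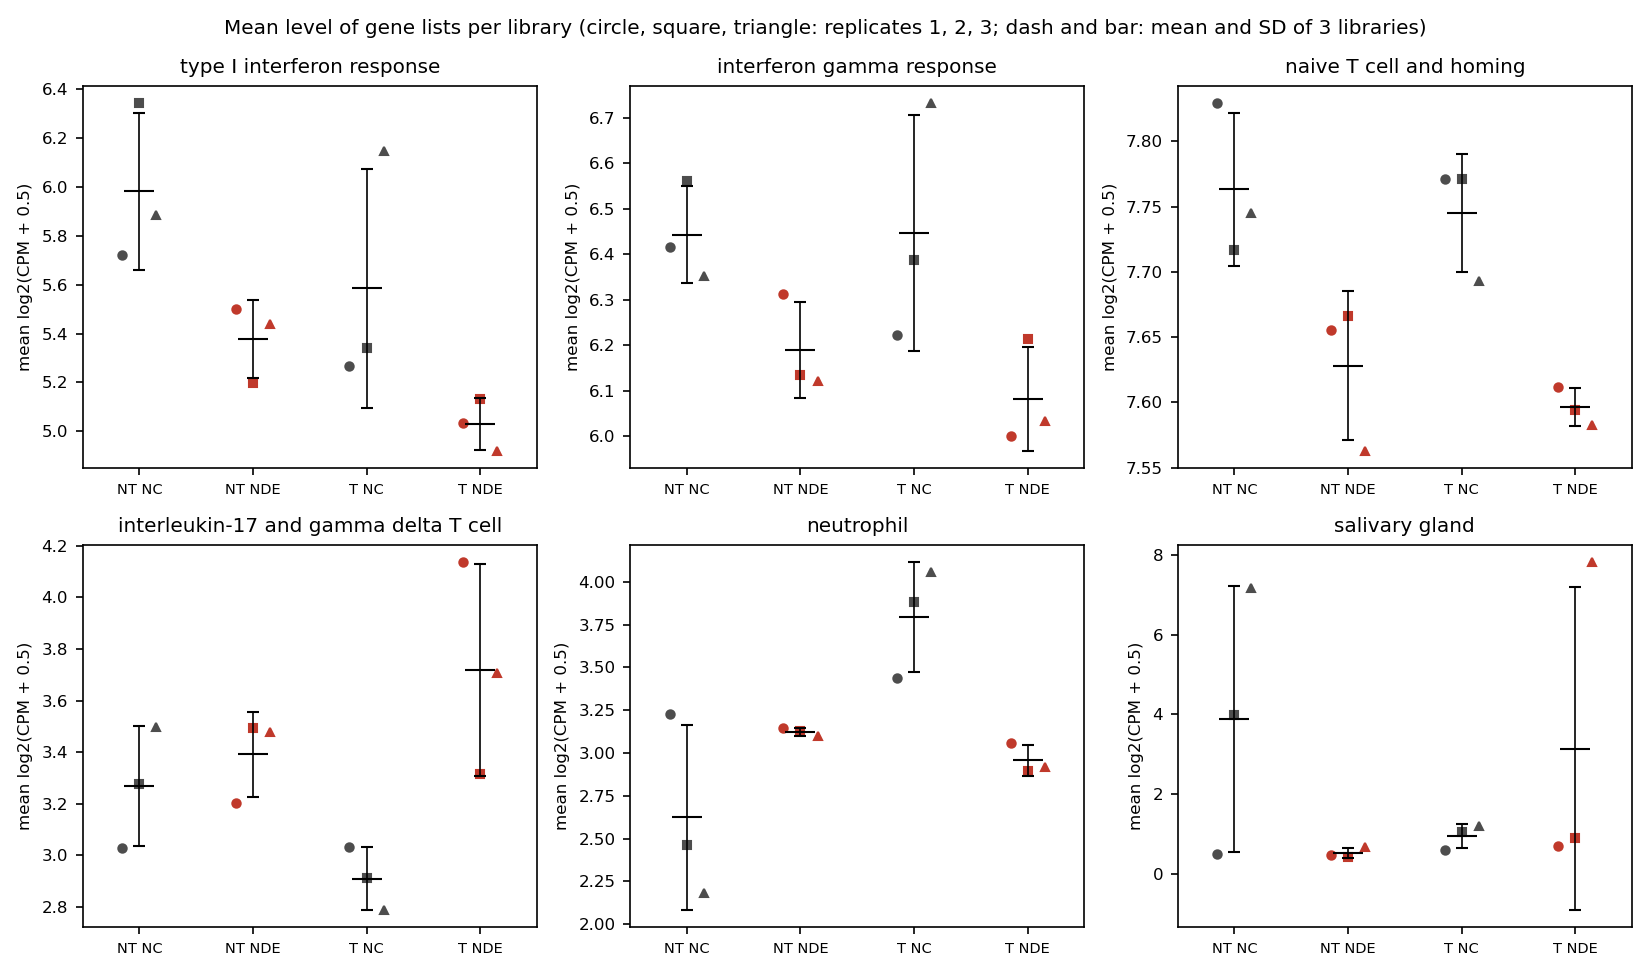
Mean log2(CPM + 0.5) of 6 gene lists in each library, by group, with the mean and SD of 3 libraries; axes do not start at 0 and differ between panels. The naive T cell list is lower in every NDE library (7.56 to 7.67) than in every NC library (7.69 to 7.83), the neutrophil list is lower in every T NDE than in every T NC library while the NT groups overlap, and the salivary list is high in 3 libraries.

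Interleukin-17-producing gamma delta T cells are tissue-resident lymphocytes that respond rapidly in barrier tissues and their nodes. Of 18 tested genes of this list, Maf among them, 17 were above 0 with a median of 0.56, against 53.8% of all genes. Il17f, a cytokine, ranged from 1.26 to 1.88 CPM (median 1.58) in the NDE libraries and from 0.169 to 1.06 CPM (median 0.798) in the NC libraries without overlap (log2 fold change 1.17, SE 0.30, edgeR adjusted p = 0.23), at very low counts. Sox13, a transcription factor of these cells, held 12.4, 10.2 and 10.6 CPM in NT NC, 7.77, 8.68 and 7.40 in T NC, 9.40, 12.3 and 12.2 in NT NDE and 19, 12.1 and 16.7 in T NDE. The T NDE libraries were all above the T NC libraries, while the NT groups overlapped (log2 fold change 1.00 in T mice and 0.03 in NT mice, edgeR interaction adjusted p = 0.622).

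The 2 strata gave different medians for this list, and no member passed the interaction test. The list median was 0.99 in T mice and 0.10 in NT mice, and 0.88 without the 3 salivary libraries. Trdc, the constant segment of the delta chain, had 1.57 in T mice and -0.15 in NT mice (edgeR interaction adjusted p = 0.624). The list level of the T NDE libraries ran from 3.31 to 4.14, with replicate 1 the highest, and without that library the list median was 0.35. Il9r, the interleukin-9 receptor, held 48.9, 49.1 and 48.8 CPM in NT NC, 42.8, 47.7 and 49 in T NC, 61.8, 67.9 and 49 in NT NDE and 75, 71.3 and 70.4 in T NDE. T NDE was the highest group and NT NDE replicate 3 lay at the level of the NC libraries (log2 fold change 0.46, SE 0.08, edgeR adjusted p = 0.0509). The other rule-named gene with a positive value was Cit, citron kinase of cell division, which ranged from 18 to 21.1 CPM (median 19.4) in the NDE libraries and from 11.6 to 17.3 CPM (median 14.4) in the NC libraries without overlap (log2 fold change 0.44, SE 0.09, edgeR adjusted p = 0.0926).

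Neutrophil genes had opposite medians in the strata. The list median was -0.06 with all libraries, -0.90 in T mice with 18 of 19 genes below 0, and 0.78 in NT mice with 4 below 0. S100a8, an alarmin of neutrophils and monocytes, had -0.90 in T mice and 0.80 in NT mice, and Camp, the antimicrobial peptide cathelicidin, -1.40 and 0.88 (edgeR interaction adjusted p = 0.622 and 0.622). Primary granule genes of immature neutrophils were below 0 in both strata. Prtn3, proteinase 3, held 6.81, 1.58 and 2.53 CPM in NT NC, 5.07, 9.65 and 7.16 in T NC, 1.92, 1.39 and 2.57 in NT NDE and 1.21, 1.88 and 1.79 in T NDE. Its T NDE libraries were all below T NC, and NT NC replicate 1 stood above the other NT libraries (log2 fold change -1.52, SE 0.38, edgeR adjusted p = 0.258). Mpo, myeloperoxidase, had -1.60 in T mice and -1.25 in NT mice, and Elane, neutrophil elastase, -1.83 and -0.60. Without the 3 salivary libraries, NT NC replicate 1, the highest NT library for Prtn3, is the only NT NC library left. The list median was then -0.42 and the log2 fold change of Prtn3 -2.04, and both rest on that library for NT NC.

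The interaction itself, which tests whether the nerve difference depends on the tumour, gave 0 genes past the threshold in edgeR (smallest adjusted p = 0.321), with 1230 at an unadjusted p under 0.05 (7.11%), and DESeq2 called 43. The separate contrasts gave 0 genes in T mice (1008 at an unadjusted p under 0.05, smallest edgeR adjusted p = 0.149; DESeq2 44) and 0 in NT mice (1796, smallest edgeR adjusted p = 0.0788; DESeq2 138). Across genes the 2 contrasts had a Pearson r of -0.56 and a Spearman rho of 0.03, which is a description across genes, and genes are not independent replicates. Salivary genes, with medians of 8.23 in T mice and -9.51 in NT mice, lie at opposite ends of it. Among the 100 genes with the smallest p in NT mice, 46 were lower in NDE and 41 of these were below 0 in T mice as well, whereas of the 54 higher genes 25 were above 0 in T mice. Among the 100 with the smallest p in T mice, 31 of 51 lower genes and 24 of 49 higher genes had the same sign in NT mice. Over all genes 47.3% were below 0 in T mice and 48.9% in NT mice, which are the shares to set beside these counts of lower genes. Below 0 in both strata were 23.7% of all genes, and 27.5% were above 0 in both.

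**Figure D4:**
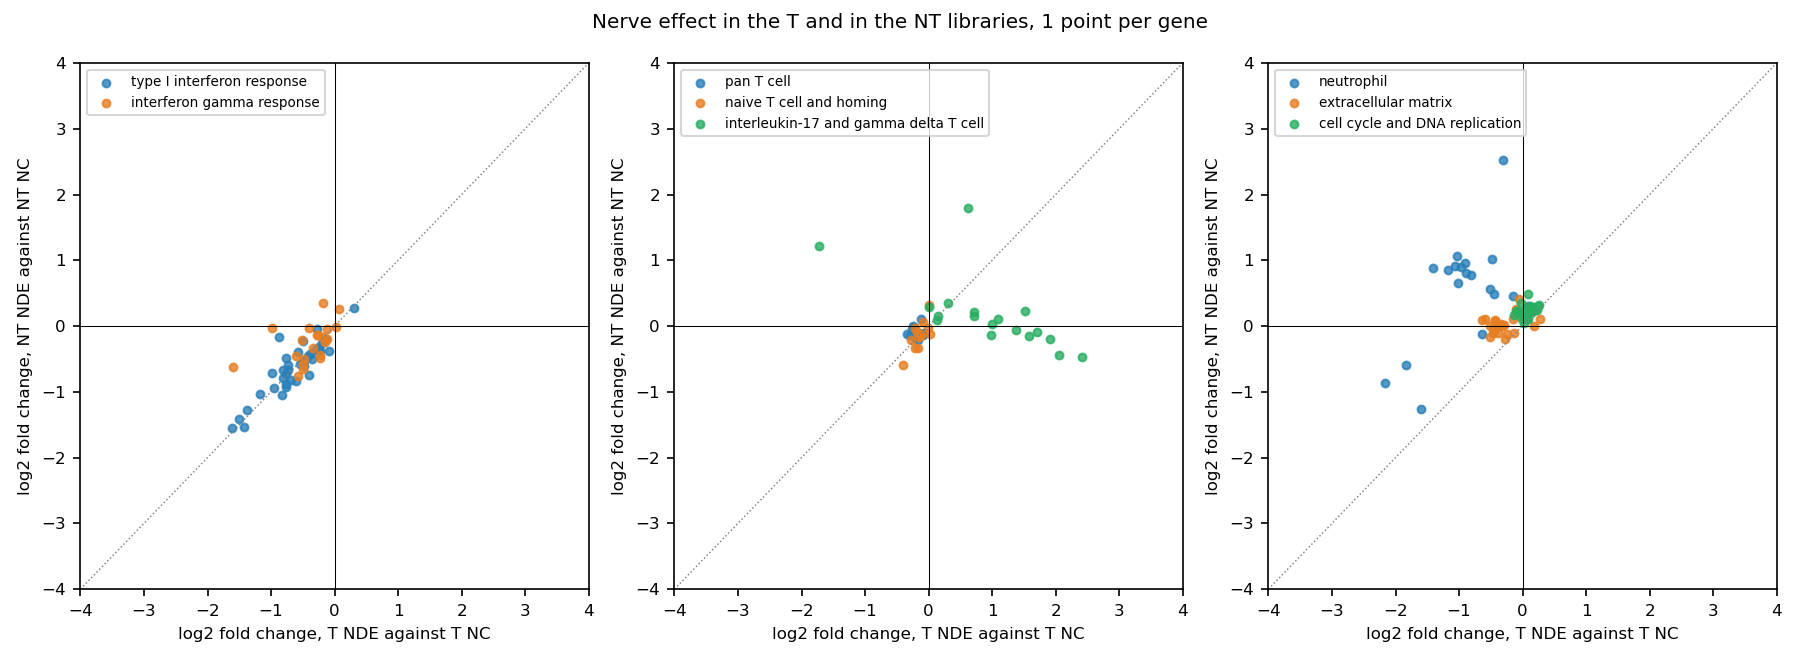
Log2 fold change of NDE against NC in T mice (horizontal axis) and NT mice (vertical axis), 1 point per tested gene of 8 lists, with the dotted line of equal values. Type I interferon genes lie along that line below 0 in both (-0.60 and -0.59 as medians), interleukin-17 genes extend along the T axis, and most neutrophil genes lie lower in T and higher in NT mice.

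No gene of the stromal and vascular lists passed. Of 24 extracellular matrix genes 20 were below 0 (median -0.18), with medians of -0.39 in T mice and 0.01 in NT mice, and -0.35 without the 3 salivary libraries. Col14a1, a fibril-associated collagen, had -0.35 (edgeR adjusted p = 0.443). Of the blood endothelial and high endothelial venule genes 15 of 18 were above 0 (median 0.12), but the median was 0.02 without the 3 salivary libraries. Chst4, a sulfotransferase that builds the ligand for homing lymphocytes, had 0.33 (edgeR adjusted p = 0.325). Ccl21a, a T cell zone chemokine, had a log2 fold change of 1.35, with 11.5 CPM in T NDE replicate 1 and at most 2.73 CPM in any other.

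In B cell follicles, Cr2, complement receptor 2 of B cells and follicular dendritic cells, held 327, 429.6 and 407 CPM in NT NC, 319, 363 and 401 in T NC, 520.5, 456 and 437 in NT NDE and 534, 478 and 418 in T NDE. Within each tumour status every NDE library was above every NC library, and across strata T NDE replicate 3 lay below NT NC replicate 2 (log2 fold change 0.34, SE 0.08, edgeR adjusted p = 0.222). Germinal centre genes had a median of 0.23 (11 of 14 above 0; 0.12 without the 3 salivary libraries). Lymphotoxin and lymphoid chemokine genes had 0.13 (14 of 16 above 0; 0.05 without those libraries). All 25 cell cycle genes were above 0 (median 0.16). The median was 0.09 in T mice, where 5 of the 25 were below 0, and 0.24 in NT mice. An unadjusted p under 0.05 was reached by 2 of the 25 with NDE higher, against 4.1% of all genes. Top2a, a topoisomerase of dividing cells, had 0.21 (edgeR adjusted p = 0.586). NT NC replicate 1 had the lowest cell cycle level of all libraries. It is the only NT NC library in the fit without the 3 salivary libraries, where the list median was 0.32. Of the heat shock and chaperone genes 14 of 15 were above 0 (median 0.12), and 5 reached an unadjusted p under 0.05 with NDE higher, against 53.8% and 4.1% of all genes.

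Receptors through which nociceptive nerves and sympathetic nerves can act on the node did not pass the threshold. Calcrl, which pairs with Ramp1 to form the receptor for calcitonin gene-related peptide, ranged from 57.2 to 71.5 CPM (median 65.1) in the NDE libraries and from 64.2 to 77.1 CPM (median 67.6) in the NC libraries with overlap (log2 fold change -0.10, SE 0.06, edgeR adjusted p = 0.659). Ramp1 had -0.13 (SE 0.09, edgeR adjusted p = 0.736). Tacr1, the substance P receptor, ranged from 2.56 to 4.10 CPM (median 3.71) in the NDE libraries and from 2.75 to 4.42 CPM (median 3.69) in the NC libraries with overlap (log2 fold change 0.01, SE 0.16, edgeR adjusted p = 0.997). Vipr1, a receptor for vasoactive intestinal peptide, had -0.19, the lowest value of the list (edgeR adjusted p = 0.55). Over 14 tested of 23 listed receptors the median was 0.03, or -0.06 without the 3 salivary libraries, and the highest value, 1.24 for Adra1a, came at means of 0.622 CPM in NDE and 0.253 CPM in NC.

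Sensory neurons keep most of their RNA in cell bodies outside the node, so transcripts in the node do not check the inhibition. The nociceptor genes Trpv1, Scn10a, Calca and Tac1 had too few counts to be tested. Of 25 Schwann cell and nerve fibre genes 15 were tested, and their median was 0.00. Prx, periaxin of myelinating Schwann cells, had 0.34 (edgeR adjusted p = 0.574). Of the neurotrophin and axon guidance genes 24 of 28 were above 0 (median 0.08, or -0.06 without the 3 salivary libraries). Sema7a, a membrane semaphorin, had 0.22, and Ret, the receptor kinase for glial-derived neurotrophic factors, 0.38 (edgeR adjusted p = 0.306 and 0.449). Circadian and glucocorticoid-responsive genes each had a median of 0.10, or 0.02 and 0.01 without the 3 salivary libraries.

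Markers of tissues next to the node also differed between libraries. The 14 tested salivary genes summed to between 49.4 and 43479.6 CPM in NDE (median 62.4) and between 46.5 and 31009.8 CPM in NC (median 119). The 11 adipocyte genes summed to between 44.8 and 215 CPM in NDE and between 54 and 113 CPM in NC. Their median log2 fold change of 0.55 became -0.50 without the 3 salivary libraries. Erythroid genes had the highest median of all lists, 1.38, or 0.39 without those libraries, and Hba-a2, an alpha globin, was highest in T NDE replicate 3 (7.01 CPM) and NT NDE replicate 3 (3.78 CPM). Melanocyte genes summed to at most 26.6 CPM in any library. The part of these tissues in the results for the immune genes was not tested, beyond the values given without the 3 salivary libraries.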

How the data were processed

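The deposited table holds whole-number read counts per gene for 12 RNA-seq libraries of mouse lymph node, made from total RNA extracted with Trizol, per the labels' protocols. Reads were aligned with HISAT2 2.0 to mm10, per the submitters' processing notes. The read counter, its annotation and its strand setting are named in no source used here. Totals ran from 16862953 to 24467873 counts, and at most 0.0548% of counts were on rows without a symbol. From the counts, edgeR 4.0.16 (R 4.3.3) was run with TMM factors from 0.967 to 1.01, filterByExpr by the 4 groups (minimum count 10, minimum total 15), and a robust quasi-likelihood fit with tumour status and nerve inhibition as additive terms and 9 residual degrees of freedom. Tests were two-sided with Benjamini-Hochberg adjustment over all 17301 genes. Interaction and within-stratum contrasts came from a fit of the 4 group means. DESeq2 1.42.0 and limma 3.58.1 were alternatives, as were other factors, filters, covariates and omitted libraries. The pooled fit was also run on simulated counts, but that outcome is not given here and no result rests on it.

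CPM values use TMM-scaled totals except for Bpifa2 in the description of the libraries, and list levels are means of log2(CPM + 0.5). Named genes were all that passed, leaving out receptor segments and predicted genes, then those with the smallest p at a mean of at least 1 CPM until 24 were named. The 3 members with the smallest p in each of the 44 lists, and all tested neuropeptide and adrenergic receptors, could be named under the same rule, and other list members given as examples were chosen after their values were seen. The comparison and the lists were chosen with earlier results of these data known. Gene positions are from GENCODE M21 (mm10), similar transcripts from blastn 2.17.0, and upstream sequences from RefSeq (GRCm38.p6).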

Additional observations from a re-analysis of the deposited data

Results flagged for a closer look

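Within the 6 libraries of each nerve arm, Dixon's criterion at the 95% level marked 15 single libraries in 144 arms examined (72 genes or lists in 2 arms each), where chance marks about 1 arm in 20. Values are on the log2(CPM + 0.5) scale, as means for lists, and each was far from the nearest of the other 5 libraries of its arm. Among genes, Tgtp1 was highest in T NDE replicate 2 (4.41, next 3.99), Il9r lowest in T NC replicate 1 (5.44, next 5.59) and Sidt1 lowest in NT NDE replicate 3 (6.31, next 6.5).

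T NDE replicate 3, the most salivary library, was highest of the NDE libraries for the salivary gland list (7.81, next 0.9), the melanocyte list (1.87, next 0.98) and the plasmacytoid dendritic cell list (5.68, next 5.41). NT NC replicate 3 was highest of the NC libraries for the melanocyte list (1.78, next 1.2) and the keratinocyte list (2.43, next 2.08). T NC replicate 3 was highest for the adipocyte list (2.64, next 1.56) and the immediate early list (5.31, next 5.07). T NC replicate 1 was highest for the cytosolic ribosomal protein list (9.72, next 9.55) and the fibroblastic reticular cell list (5.5, next 5.18). NT NC replicate 1 was lowest for the cell cycle list (4.91, next 5.39), and T NDE replicate 1 was lowest for the follicular dendritic cell list (6.03, next 6.29). NT NDE replicate 2 was highest for the regulatory T cell and checkpoint list (4.59, next 4.48).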

How the results depend on the processing

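Against 12 genes, the pooled comparison gave 26 without a filter, 19 with a stricter filter, 131 with DESeq2 and 7 with limma-voom. It gave 3 with Bpifa2 as a covariate, 19 without antigen receptor segments and 5 without the 2 most salivary libraries. Without the 3 most salivary libraries NT NC replicate 1 is the only NT NC library, so no counts are given for those fits. Leaving out 1 library in turn gave 0 to 17. Fitted alone, the 6 T libraries gave 0 and the 6 NT libraries 37 (15 higher, 22 lower). The interaction, 0 in edgeR, gave 43 with DESeq2 and 0 to 2 without 1 library. The T contrast, 0 in edgeR, gave 44 with DESeq2 and 0 to 1 without 1 library. The NT contrast, 0 in edgeR, gave 138 with DESeq2, 33 without the 3 most salivary libraries and 0 to 7 without 1 library. With the replicate number as a block the counts were 2 (pooled), 1 (interaction) and 3 (NT contrast). The labels do not say that a number pairs samples, and 4 of 18 same-numbered pairs had deviations correlated above 0.1 (range -0.15 to 0.62). The causes of these differences were not tested. No called gene changed direction in any alternative. For omitted libraries this was fixed in advance, because the arms of these genes did not overlap. The alternatives for the T and NT contrasts were added after the data were seen. Depth limits the precision of genes at low counts, such as Prtn3, whose log2 fold change had an SE of 0.38.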

Other observations

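DESeq2's Wald test called 107 genes lower in NDE, and 25 of them belonged to the type I or interferon gamma lists, which is 23.4% of the genes called lower and 43.1% of the 58 interferon genes tested. None of its 24 higher genes did, and 0.3% of all genes tested belong to these lists. The 2 tools used the same 12 libraries, so these calls are no independent evidence.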
